A study of Mus musculus with 36 samples.

Results

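The 48 genes described here are components of the Wnt signalling pathway, listed by name: 13 Wnt ligands, 10 Frizzled receptors, the coreceptors Lrp5 and Lrp6, 7 genes of β-catenin and the complexes that control it, 4 TCF/LEF transcription factors, 6 feedback genes, 3 secreted modulators and 3 R-spondins. Each of the 48 symbols matched 1 of the 46603 genes in each of the 2 count tables. The study lowered the dose of Chd8, which encodes a chromatin remodeller known as a regulator of β-catenin, and measured RNA from the embryonic mouse forebrain. At embryonic day 12.5 (E12.5), the neocortices of single C57Bl/6J embryos gave 3 libraries for each of 4 genotypes. These were wildtype (Chd8 +/+), heterozygote (Chd8 +/-, with 1 null allele lacking exon 3), mild hypomorph (Chd8 neo/neo, both alleles carrying a neo selection cassette that lowers expression) and severe hypomorph (Chd8 neo/-, 1 neo and 1 null allele). At E10.5, tissue labelled cortex gave 3 libraries for the conditional knockout (cKO; Sox1-Cre with Chd8 f/f) and 3 for control (Ctrl) embryos, which the labels give as a mixture of Chd8 f/f and f/+ without naming a Cre, with 2 embryos pooled in each library. Because only the cKO group is labelled as carrying Sox1-Cre, the presence of Cre and the loss of Chd8 cannot be told apart at this stage. Sox1 itself was at 96.0, 108 and 101 CPM (the usual count scaling to library size, after normalisation) in Ctrl and 60.8, 64.8 and 71.1 CPM in cKO.

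Wnt ligands are secreted glycoproteins that bind a Frizzled receptor together with LRP5 or LRP6. In the absence of ligand, a destruction complex built around APC, AXIN and GSK3β marks β-catenin for degradation. Ligand binding recruits Dishevelled proteins and disables this complex, so that β-catenin accumulates and activates target genes with TCF/LEF factors. Among the targets are feedback inhibitors such as AXIN2, NKD1, NOTUM, RNF43 and ZNRF3, while R-spondins oppose RNF43 and ZNRF3 and thereby keep Frizzled receptors at the cell surface. In the embryonic telencephalon the cortical hem, at the dorsomedial edge of the cortex, is a known source of Wnt ligands.

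Summed counts per library ran from 38774591 to 61051667 in the E12.5 set and from 49632937 to 68488879 in the E10.5 set, in which every cKO library was deeper than every Ctrl library. Chd8 mRNA was at 237, 235 and 239 CPM in Chd8 +/+, 165, 170 and 165 in Chd8 +/-, 213, 203 and 211 in Chd8 neo/neo and 158, 147 and 142 in Chd8 neo/-. Reads counted over the whole Chd8 gene were thus higher in neo/neo than in heterozygotes and did not follow the order of the alleles. Such counts do not separate intact transcripts from those spliced into the neo cassette or lacking exon 3. By RT-PCR at an earlier stage and protein blots at E12.5, the paper reports less Chd8 transcript and protein in neo/neo than in heterozygotes. Chd8 was at 160, 168 and 184 CPM in Ctrl and at 120, 125 and 116 CPM in cKO. The dorsal telencephalic factor Emx1 was at 35.8 to 69.3 CPM in the 12 E12.5 libraries and 24.1 to 39.2 CPM in the 6 E10.5 libraries. Although the E12.5 tissue is labelled neocortex, the ventral telencephalic genes Dlx1 (191 to 258 CPM) and Nkx2-1 (55.6 to 99.5 CPM) were expressed in all 12 libraries. A heterozygous library, Chd8 +/- replicate 2, stood apart. It held Shox2 at 25.3 CPM, against 0.313 to 2.93 CPM in the other 11 libraries, and Olig3 at 12.9 CPM, against 0.126 to 6.28 CPM, and its summed level of 13 mesenchyme and meninges genes was 1293 CPM, against 632 to 954 CPM. Values that rest on it are therefore also given without it.

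Levels were compared between genes as mean CPM per kilobase of exon. By far the most abundant of the 48 in Chd8 +/+ neocortex was Ctnnb1, which encodes β-catenin, at 285 CPM per kilobase, followed by the secreted Frizzled-related protein gene Sfrp1 at 97.9 CPM per kilobase. Gsk3b (35.5), Fzd2 (33.6), Wnt7b (31.2), Fzd8 (26.9), Apc (23.8), Dvl3 (22.8) and Wnt8b (21.6) came next on this scale. Wnt7b and Wnt8b were the leading ligands at E12.5, and in Ctrl tissue at E10.5 they were again first, in the opposite order, with 46.0 CPM per kilobase for Wnt7b and 48.1 for Wnt8b. Fzd2 was the most abundant Frizzled receptor at both stages, Lrp6 (10.4 at E12.5 and 12.2 at E10.5) was above Lrp5 (4.77 at both), and Tcf7l1 was the most abundant TCF/LEF factor (15.3 and 14.02). In Chd8 +/+ libraries 43 of the 48 genes averaged 1 CPM or more, and in Ctrl libraries 46 did. Wnt1, Wnt6, Wnt11 and Notum stayed below 1 CPM in each of the 12 E12.5 libraries.

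**Figure D1:**
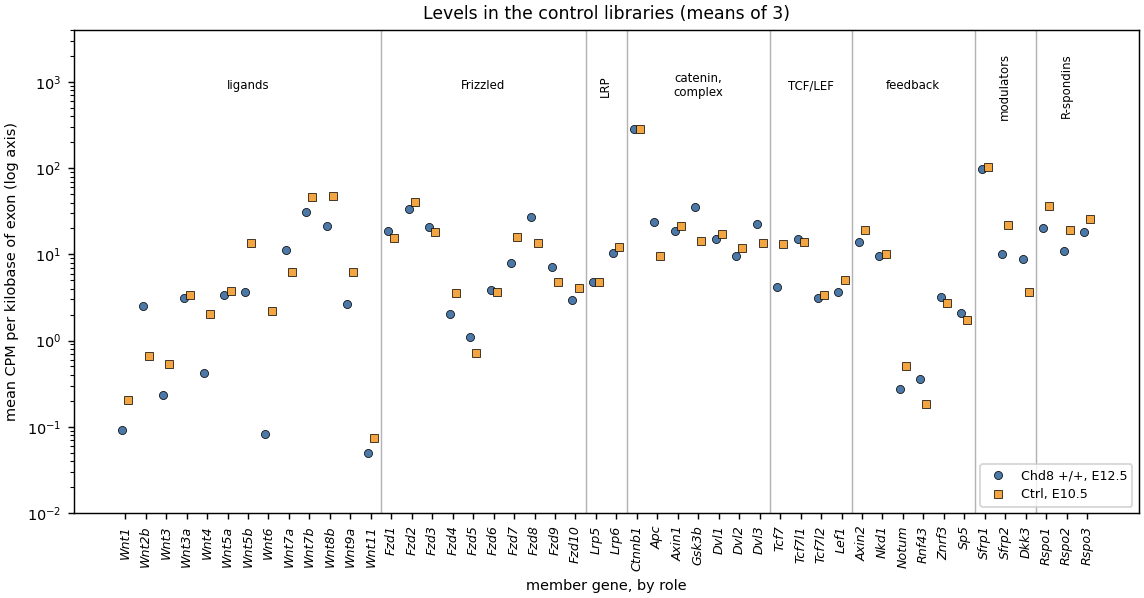
Mean level of each of the 48 Wnt pathway genes in Chd8 +/+ neocortex at E12.5 and in Ctrl tissue at E10.5, in CPM per kilobase of exon on a log axis, grouped by role. Ctnnb1 (285 and 286 CPM per kilobase) and Sfrp1 (97.9 and 105 CPM per kilobase) lie above the other 46 genes at both stages.

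The stages were prepared separately, so their levels are set side by side without a test. Wnt6 was at a mean of 0.179 CPM in Chd8 +/+ at E12.5 and 4.78 CPM in Ctrl at E10.5, Wnt4 at 1.76 and 8.48 CPM, and Wnt5b at 9.60 and 35.7 CPM. Tcf7 (10.9 and 34.7 CPM) and Wnt8b (72.9 and 162 CPM) also had the higher level at E10.5. The opposite order was seen for Wnt2b (10.5 CPM at E12.5 and 2.75 CPM at E10.5), Gsk3b (349 and 139 CPM), Apc (374 and 153 CPM) and Dkk3 (29.9 and 12.3 CPM). Neuronal markers differed between the stages too, with a summed level of 9 genes of 3754 to 4457 CPM in Chd8 +/+ and 207 to 381 CPM in Ctrl.

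Heterozygous loss of Chd8 was compared with wildtype first. None of the 48 genes passed edgeR's quasi-likelihood test at an adjusted p below 0.05, and by DESeq2 the count was also 0, beside 0.0213% of all genes called in this comparison. At an unadjusted p below 0.05 there was 1 member, the transcription factor gene Tcf7, at 11.1, 9.53 and 11.9 CPM in Chd8 +/+ and 8.63, 8.83 and 8.93 CPM in Chd8 +/- (log2 fold change -0.31, edgeR adjusted p = 0.612). The median log2 fold change over the 48 genes was 0.02, and 29 were above 0. The largest fitted differences lay in Wnt3 (log2 fold change 1.42), Tcf7l2 (1.36), Wnt11 (0.83), Wnt6 (0.78) and Fzd10 (0.43), and each came from Chd8 +/- replicate 2. That library held Tcf7l2, a TCF factor, at 159 CPM against 24.4 and 27.2 CPM in the other heterozygotes and 24.3 to 38.2 CPM in the 11 other E12.5 libraries. It held Fzd10 at 22.4 CPM (7.69 to 15.3 CPM in the others), Wnt3 at 3.96 CPM (0.708 to 2.95), Wnt11 at 0.819 CPM (0.0236 to 0.274) and Wnt6 at 0.546 CPM (0.0945 to 0.301). These 5 were the members that exceeded 1.5 times the median of the other libraries there. Without this library the log2 fold changes were 0.36 for Wnt3, -0.08 for Tcf7l2, -1.16 for Wnt11, 0.06 for Wnt6 and -0.23 for Fzd10. The median over the 48 genes was then -0.0069, with 22 above 0, and edgeR called 0 of them, with 2 at an unadjusted p below 0.05.

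**Figure D2:**
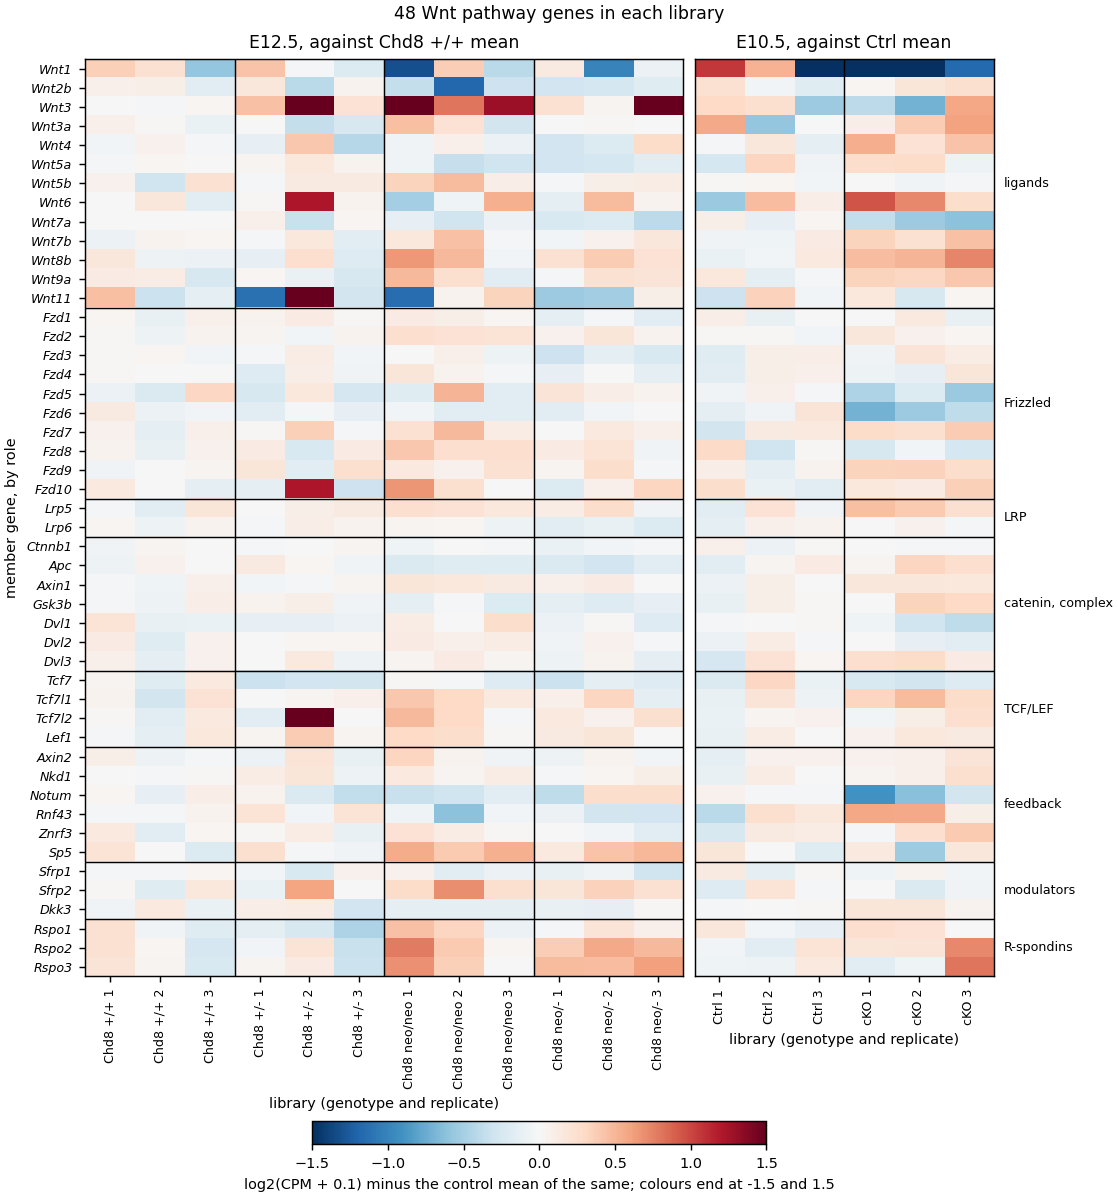
Colour map of each library's difference from its control mean, log2(CPM + 0.1) in the library minus the mean over Chd8 +/+ (12 E12.5 libraries) or Ctrl (6 E10.5 libraries), for the 48 genes grouped by role, with colours ending at 1.5 in both directions. The column of Chd8 +/- replicate 2 shows the high values of Tcf7l2 (159 CPM), Wnt3, Wnt6, Wnt11 and Fzd10.

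In the hypomorphs few Wnt genes passed the test, and the counts lay near what the share of all genes called would give. In Chd8 neo/neo 3 of 48 passed against Chd8 +/+ (Fzd2 and Sp5 higher, Apc lower), beside 8.16% of all genes. In Chd8 neo/- 4 of 48 passed (Apc, Fzd3, Lrp6 and Wnt5a, all lower), beside 11.5% of all genes. Apc was the member called in both. The median log2 fold change of the 48 genes was 0.11 in neo/neo and 0.02 in neo/-, with 32 and 25 genes above 0, while the median of all genes lay within 0.0062 of 0 in every comparison. Both comparisons share the Chd8 +/+ libraries. Between the hypomorphs themselves, edgeR called 0 of the 48 genes, with 7 at an unadjusted p below 0.05 and 0 by DESeq2, beside 0.0159% of all genes, so none of the differences between mild and severe hypomorph named here was itself past the test.

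Apc encodes the scaffold of the β-catenin destruction complex. It was at 355, 392 and 377 CPM in Chd8 +/+, 410, 380 and 360 in Chd8 +/-, 322, 331 and 329 in Chd8 neo/neo and 323, 307 and 336 in Chd8 neo/-. All 6 hypomorphic libraries lay below all 6 wildtype and heterozygous libraries. Apc and the other members called at E12.5 were picked by tests on these libraries, so such separation adds no evidence. Its share over all genes was not counted. The log2 fold change of Apc from Chd8 +/+ was -0.20 ± 0.054 (SE) in neo/neo (edgeR adjusted p = 0.0413) and -0.22 ± 0.054 in neo/- (adjusted p = 0.0197). Apc has a long exonic length (15753 bases), and once the trend of fold change with exon length was removed neither comparison called it. Its mRNA was at 136, 157 and 166 CPM in Ctrl and at 157, 191 and 181 CPM in cKO (log2 fold change 0.21, edgeR adjusted p = 0.159). Gsk3b, the kinase of the same complex, was at 344, 330 and 373 CPM in Chd8 +/+, 318, 344 and 303 in neo/neo and 316, 305 and 319 in neo/-. Its groups overlapped between neo/neo and wildtype but not between neo/- and wildtype, where the log2 fold change of -0.16 missed the threshold (edgeR adjusted p = 0.103). Axin1, the other scaffold, was at 70.2, 67.9 and 75.0 CPM in Chd8 +/+ and 80.7, 79.0 and 78.1 CPM in neo/neo, and also missed it (log2 fold change 0.16, adjusted p = 0.0521). The 3 Dishevelled genes, which relay the receptor signal to this complex, had log2 fold changes between -0.10 and 0.12 in the hypomorphs, none called.

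Ctnnb1 was called in none of the 7 tests, with edgeR adjusted p-values of 0.306 or more. Its means were 1455 ± 48.9 CPM (SD, n = 3) in Chd8 +/+ and 1397 ± 35.7 CPM in Chd8 neo/-, and 1460 ± 83.6 CPM in Ctrl and 1447 ± 4.85 CPM in cKO. The 95% intervals of the log2 fold change were -0.08 to 0.11 in the heterozygote, -0.13 to 0.06 in neo/neo, -0.15 to 0.04 in neo/- and -0.15 to 0.13 in cKO. The mRNA of β-catenin was therefore measured to within 0.15 log2 units in each comparison, which says nothing of the amount or location of the protein.

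Fzd2 and Fzd3 were the Frizzled receptors called at E12.5, each in a different hypomorph. Fzd2 was at 125, 117 and 128 CPM in Chd8 +/+, 127, 120 and 127 in Chd8 +/-, 146, 143 and 142 in neo/neo and 129, 139 and 127 in neo/-. The 3 neo/neo libraries were the highest of the 12, and the log2 fold change from Chd8 +/+ was 0.22 ± 0.046 (edgeR adjusted p = 0.0116). In neo/- the value was 0.10 (adjusted p = 0.19). Fzd3 showed the other order. It was at 87.8, 88.6 and 84.7 CPM in Chd8 +/+, 85.6, 93.8 and 84.7 in Chd8 +/-, 87.0, 92.0 and 82.7 in neo/neo and 69.9, 79.5 and 74.0 in neo/-. The severe hypomorph alone lay below the rest, with a log2 fold change of -0.22 ± 0.056 from Chd8 +/+ (edgeR adjusted p = 0.0204). The coreceptor gene Lrp6 moved in the same group, at 145, 134 and 147 CPM in Chd8 +/+, 146, 145 and 134 in neo/neo and 127, 132 and 123 in neo/- (log2 fold change -0.16 ± 0.048, adjusted p = 0.044). Lrp6 is also long in exon (13672 bases), and its call was lost when the exon length trend was removed. The direct tests of neo/- against neo/neo missed the threshold for all 3 genes, with log2 fold changes of -0.13 for Fzd2, -0.23 for Fzd3 and -0.16 for Lrp6 (edgeR adjusted p = 0.533, 0.41 and 0.484). Fzd8 was at 92.7, 83.2 and 93.7 CPM in Chd8 +/+ and at 119, 107 and 107 CPM in neo/neo, a log2 fold change of 0.30 with an adjusted p of 0.0715. The remaining 7 Frizzled genes and Lrp5 had log2 fold changes between -0.13 and 0.32 in the hypomorphs, none called.

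Among the ligands, Wnt5a, which acts mostly through routes that do not use β-catenin, was the one called in a hypomorph. Wnt5a was at 26.1, 26.99 and 26.5 CPM in Chd8 +/+, 27.3, 29.5 and 27.6 in Chd8 +/-, 25.5, 20.8 and 21.6 in neo/neo and 21.7, 22.1 and 23.8 in neo/-. Each hypomorphic library was below every wildtype library. The log2 fold change was -0.24 ± 0.070 in neo/- (edgeR adjusted p = 0.0423) and nearly the same, -0.23, in neo/neo, where the adjusted p of 0.058 missed the threshold. Wnt7a, a ligand of cortical progenitors, was at 35.6, 35.8 and 36.1 CPM in Chd8 +/+ and 30.6, 31.2 and 27.4 CPM in neo/-, and its log2 fold change of -0.27 had an adjusted p of 0.0767. The leading ligands were not called. Wnt7b was at 130, 142 and 141 CPM in Chd8 +/+ and at 134, 144 and 154 CPM in neo/-, and Wnt8b at 81.7, 68.7 and 68.4 CPM and at 85.2, 94.6 and 84.5 CPM. The neo/neo libraries were uneven for Wnt8b, at 114, 102 and 70.5 CPM. The same replicate 3 was also the lowest neo/neo library for Wnt7b, Wnt9a and all 3 R-spondins. Wnt3 was low and uneven, with 2.95 CPM in neo/neo replicate 1 and 2.94 CPM in neo/- replicate 3, against 0.708 to 0.744 CPM in Chd8 +/+.

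The feedback genes serve as a readout of β-catenin signalling, and most of them did not pass the test. Axin2 was at 80.7, 72.2 and 75.3 CPM in Chd8 +/+, 71.3, 87.6 and 70.6 in Chd8 +/-, 94.99, 79.0 and 73.2 in neo/neo and 72.3, 79.0 and 73.8 in neo/-. The groups overlapped throughout, and the 95% interval of the log2 fold change was -0.11 to 0.33 in neo/neo and -0.24 to 0.20 in neo/-. In neo/neo Axin2 had an edgeR adjusted p of 0.53 and was called under none of the 23 alternatives. The paper, however, names Axin2 among genes raised in neo/neo in its RNA-seq. By qRT-PCR at a later stage it also reports higher Axin2 in sorted TBR2+ but not PAX6+ progenitors, which bulk libraries do not separate. Nkd1, Notum, Rnf43 and Znrf3 had log2 fold changes between -0.31 and 0.11 in the hypomorphs. Sp5, a transcription factor gene induced by β-catenin, was the exception. It was low, at 5.03, 4.34 and 3.76 CPM in Chd8 +/+ and 5.13, 4.28 and 4.17 CPM in Chd8 +/-, and reached 6.43, 5.73 and 6.33 CPM in neo/neo. The 3 neo/neo libraries lay above all wildtype and heterozygous libraries, with a log2 fold change from Chd8 +/+ of 0.49 ± 0.13 (edgeR adjusted p = 0.0331). In neo/- Sp5 was at 4.83, 5.87 and 6.20 CPM, which overlapped the wildtype range (log2 fold change 0.36, adjusted p = 0.0862). Of the TCF/LEF factors, Tcf7, Tcf7l1, Tcf7l2 and Lef1 had log2 fold changes between -0.22 and 0.27 in the hypomorphs and none was called.

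The promoters of Sp5 and Gsk3b are shown because Sp5 was the feedback gene called and both carry the core letters of the TCF/LEF motif, CTTTGA, on either strand. The 250 bases before each start site are given 5′ to 3′ on the gene's strand, from RefSeq on GRCm38.p6, with matches to CTTTGA or its reverse complement TCAAAG in capitals. Sp5 lies on chr2:70474673-70474922 (plus strand) and Gsk3b on chr16:38088751-38089000 (plus strand).
Sp5: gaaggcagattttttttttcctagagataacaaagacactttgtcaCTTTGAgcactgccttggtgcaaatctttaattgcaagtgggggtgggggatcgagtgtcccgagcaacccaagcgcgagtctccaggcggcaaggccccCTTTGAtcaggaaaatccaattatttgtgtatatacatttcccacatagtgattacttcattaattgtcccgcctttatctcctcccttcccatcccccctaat
Gsk3b: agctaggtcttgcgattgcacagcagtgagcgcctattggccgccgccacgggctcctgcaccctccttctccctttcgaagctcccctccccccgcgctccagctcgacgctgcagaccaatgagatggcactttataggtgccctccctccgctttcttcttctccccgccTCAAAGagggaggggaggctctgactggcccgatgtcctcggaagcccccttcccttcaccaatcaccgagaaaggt
The Sp5 matches begin 204 and 104 bases before the start site, and the second of them extends to CTTTGAT. The Gsk3b match lies on the reverse strand, 77 bases before the start. Windows from 250 bases before to 50 bases after the start were found for 32 of the 48 genes, and 6 of these 32 (18.8%; Fzd1, Gsk3b, Lef1, Sp5, Wnt11 and Wnt5b) held CTTTGA, against 18.2% of 27025 genes. CTTTGAT, which lies within those matches, was held by 3 of the 32 (9.38%; Sp5, Wnt11 and Wnt5b), against 4.29% of all genes. The share of promoters with these letters among Wnt genes was thus near that of all genes for the shorter motif, and the longer one rests on 3 genes. A match of letters describes the sequence and is not a binding site.

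**Figure D3:**
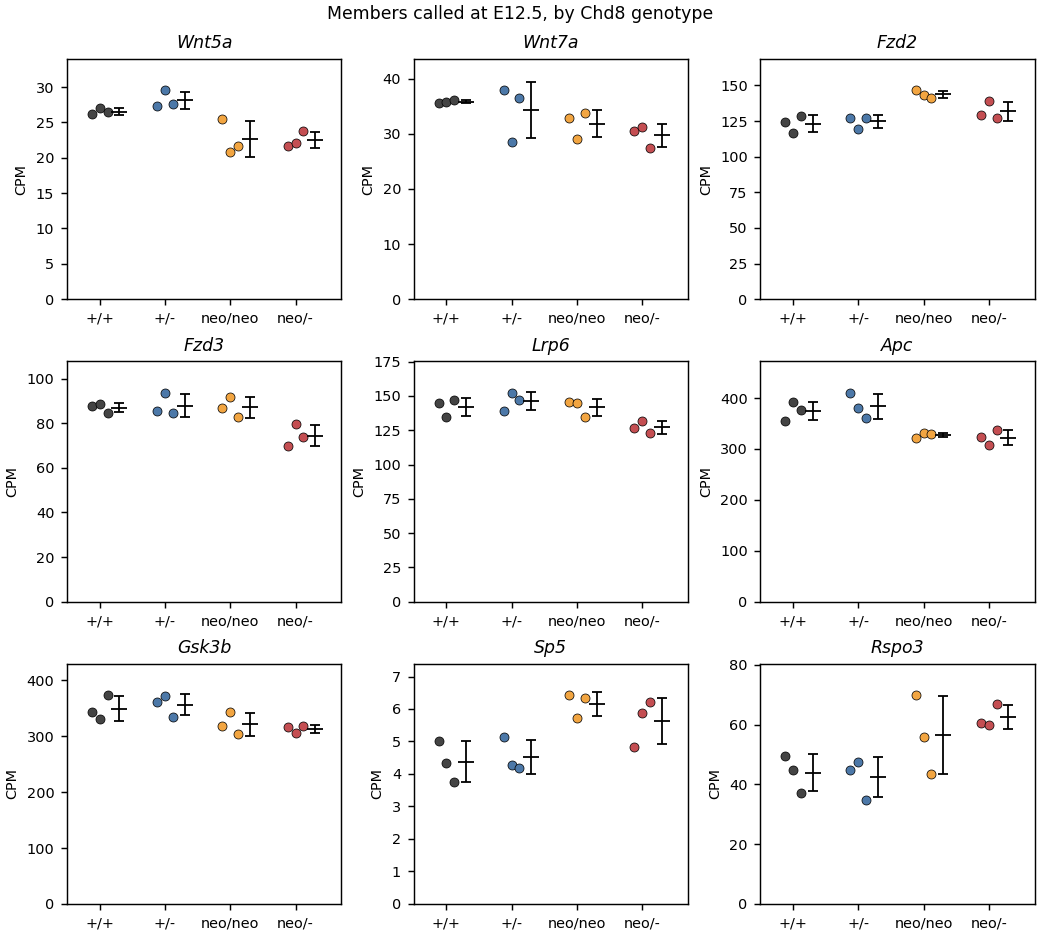
CPM of 9 genes (Wnt5a, Wnt7a, Fzd2, Fzd3, Lrp6, Apc, Gsk3b, Sp5 and Rspo3) in the 12 E12.5 libraries by genotype, with a dot for each library and a bar for the mean ± SD of 3. Apc lies between 307 and 336 CPM in the hypomorphs and between 355 and 410 CPM in wildtype and heterozygous libraries, and Fzd2 is highest in neo/neo. The genes shown were picked by tests on these libraries.

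Neo/neo was also compared with the heterozygote, which carries 1 null allele in place of the 2 neo alleles. Of the 48 genes 3 passed the test, Fzd2 higher and Apc and Wnt5a lower, beside 5.28% of all genes. The log2 fold changes were 0.21 ± 0.046 for Fzd2 (edgeR adjusted p = 0.0267), -0.23 ± 0.054 for Apc (adjusted p = 0.0307) and -0.31 ± 0.070 for Wnt5a (adjusted p = 0.0267). In each of the 3 genes the libraries of the 2 genotypes did not overlap. The genes were picked by the test on these libraries, so this is no separate evidence. The share of all genes without overlap was not counted. Deviations of same-numbered libraries of these 2 genotypes were weakly correlated (0.108, 0.195 and 0.199). No pairing is stated, and the paper describes separate crosses for the 2 genotypes. With the replicate number as a block in the fit, the called members were Fzd2, Rspo1 and Wnt5a, beside 572 of all 18810 genes. The R-spondin gene Rspo1 was at 35.5, 33.1 and 28.3 CPM in Chd8 +/- and at 53.2, 48.8 and 36.9 CPM in neo/neo, the lowest neo/neo library thus above the highest heterozygote. Without a block its log2 fold change of 0.52 had an edgeR adjusted p of 0.0678. The comparison depended on single libraries. The member count was 0 without Chd8 +/- replicate 1 or neo/neo replicate 2. It was 1 without Chd8 +/- replicate 2 or 3 (Apc) or without neo/neo replicate 1 (Wnt5a). It was 7 without neo/neo replicate 3, when Rspo1, Wnt3a, Wnt8b and Wnt9a joined Apc, Fzd2 and Wnt5a. Over all genes, calls ran from 23 without neo/neo replicate 2 to 2100 without neo/neo replicate 3.

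A linear trend was fitted over the 4 genotypes in the order of the alleles, with a score from 0 for Chd8 +/+ to 3 for Chd8 neo/-. It called 6 of 48 genes, beside 15.7% of all genes. Of these, 4 had a negative slope, namely Apc (-0.089 ± 0.021 log2 units per step, edgeR adjusted p = 0.00964), Wnt5a (-0.10, adjusted p = 0.0218), Wnt7a (-0.092, adjusted p = 0.0325) and Gsk3b (-0.061, adjusted p = 0.0432). Sp5 (0.15 per step, adjusted p = 0.0377) and Rspo3 (0.19 per step, adjusted p = 0.0366) had a positive slope. The fit assumed equal steps, but of the called members only Wnt7a had group means that changed in the same direction at every step. Wnt7a averaged 35.8 CPM in Chd8 +/+, 34.3 in Chd8 +/-, 31.9 in neo/neo and 29.7 in neo/-. In the same order Apc averaged 374, 384, 327 and 322 CPM, Wnt5a 26.5, 28.1, 22.7 and 22.5 CPM, and Gsk3b 349, 356, 322 and 314 CPM. Rspo3, a secreted enhancer of Wnt signalling made at the cortical hem, was at 49.7, 44.7 and 37.3 CPM in Chd8 +/+, 44.9, 47.5 and 34.8 in Chd8 +/-, 69.9, 55.9 and 43.6 in neo/neo and 60.7, 60.0 and 67.0 in neo/-. The 3 neo/- libraries exceeded all wildtype and heterozygous libraries, whereas neo/neo overlapped them. Rspo2 had the same order of groups, with 41.6, 36.3 and 29.9 CPM in Chd8 +/+ and 46.1, 53.0 and 49.9 CPM in neo/-, and was not called (0.19 per step, adjusted p = 0.072). Without Chd8 +/- replicate 2 the trend again called 6 members, with Fzd3 in place of Rspo3. The trend uses the same 12 libraries as the pairwise tests and is no separate evidence. It called 1 member without neo/- replicate 2 (Apc) and 2 without neo/- replicate 1 (Apc and Sp5). Without neo/- replicate 3 or Chd8 +/+ replicate 3 it called 2 (Apc and Wnt5a each time). Over all genes these removals left 1750, 2004, 2329 and 2004 calls in the same order, from 2946.

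Some of the cell type marker lists also differed between the E12.5 genotypes. The summed level of 9 neuronal markers was 3754 to 4457 CPM in Chd8 +/+, 3782 to 4518 in Chd8 +/-, 3065 to 3595 in neo/neo and 3400 to 3790 in neo/-, and 2 of the 9 (Dcx and Map2) were called lower in each hypomorph. The summed level of 9 progenitor markers was 1456 to 1637 CPM in Chd8 +/+ and 1712 to 1815 CPM in neo/neo, where Pax6 and Sox2 were called higher. The 10 markers of the cortical hem and choroid plexus, none of them called, overlapped between the genotypes, at 92.0 to 149 CPM in Chd8 +/+ and 146 to 164 CPM in neo/-. Ventral telencephalic (490 to 658 CPM), midbrain and isthmus (5.46 to 13.5 CPM), surface ectoderm (7.55 to 15.3 CPM) and endothelial markers (208 to 263 CPM) spanned these ranges over the 12 libraries, and of them Kdr was called in a pairwise test, lower in neo/neo. The 13 mesenchyme and meninges markers summed to 761 to 954 CPM in Chd8 +/+ and 632 to 831 CPM in the hypomorphs, with none called. In the trend over the genotypes, Bcl11b, Dcx, Map2, Lhx6 and Grhl3 were called lower and Cldn5 higher. The labels do not give sex. By Xist and Y-linked genes, 1 of 3 embryos was female in Chd8 +/+ and in Chd8 +/-, 2 of 3 in neo/neo and 0 of 3 in neo/-, and with this as a covariate the calls of Sp5 in neo/neo and of Lrp6 and Wnt5a in neo/- missed the threshold. The part of these cell types in the differences of Apc, Fzd2, Fzd3, Lrp6, Wnt5a, Sp5 and Rspo3 was not tested, and in bulk tissue fewer cells of a type and less RNA per cell cannot be told apart. Single libraries decided several calls. In neo/neo against Chd8 +/+ the count was 0 without Chd8 +/+ replicate 2, 1 without neo/neo replicate 1 (Wnt5a) or replicate 2 (Fzd2), and 5 without Chd8 +/- replicate 2, with Fzd8 and Wnt5a added. In neo/- against Chd8 +/+ it was 0 without neo/- replicate 1. It was 1 without neo/- replicate 2 (Fzd3), neo/- replicate 3 (Apc), Chd8 +/+ replicate 2 (Lrp6) or Chd8 +/+ replicate 3 (Fzd3). Without Chd8 +/+ replicate 1 or Chd8 +/- replicate 3 it was 2 (Apc and Fzd3). Over all genes, leaving out 1 library gave 435 to 2605 calls in neo/neo and 1015 to 2574 in neo/-.

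Conditional deletion at E10.5 gave the largest count. Of 47 members tested 8 (17%) passed edgeR's test between cKO and Ctrl, beside 11.4% of all genes. The count fell to as few as 2 when 1 library was left out. Ligands were 5 of the 8 called and 12 of the 47 tested. Wnt4, Wnt7b, Wnt8b and Wnt9a rose, as did the coreceptor gene Lrp5 and the transcription factor gene Tcf7l1, while Wnt7a and the receptor gene Fzd6 fell. The median log2 fold change of the 47 genes was 0.12, against -0.0019 for all genes tested, and 31 were above 0. Of the 8, Wnt7a was also called in the E12.5 trend, lower there too.

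Wnt8b, a ligand of the dorsomedial telencephalon, had the smallest adjusted p. It was at 151, 158 and 179 CPM in Ctrl and 223, 231 and 269 CPM in cKO, so that every cKO library was above every Ctrl library. The mean went from 162 ± 14.8 to 241 ± 24.5 CPM (SD, n = 3 each), a log2 fold change of 0.57 ± 0.085 (edgeR adjusted p = 0.00300). Wnt7b, the other abundant ligand, was at 195, 193 and 221 CPM in Ctrl and 255, 238 and 275.7 CPM in cKO (log2 fold change 0.33 ± 0.073, adjusted p = 0.0158). The summed level of the 13 ligands was 133 CPM per kilobase in Ctrl and 171 in cKO, most of it from this pair. Wnt9a was at 22.99, 18.6 and 20.2 CPM in Ctrl and 25.8, 25.5 and 27.3 CPM in cKO (log2 fold change 0.35, adjusted p = 0.0293). Wnt4 was at 8.26, 9.54 and 7.66 CPM in Ctrl and 12.4, 9.86 and 11.4 CPM in cKO, a narrow separation with an adjusted p of 0.0464 (log2 fold change 0.40). Wnt7a went the other way from its close relative Wnt7b. It was at 20.9, 18.1 and 20.1 CPM in Ctrl and 15.2, 13.5 and 12.8 CPM in cKO, with no overlap (log2 fold change -0.51 ± 0.094, edgeR adjusted p = 0.00731).

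The promoters of Wnt8b and Wnt7a are shown as the ligands with the smallest adjusted p in each direction, in the same form as those of Sp5 and Gsk3b. Wnt8b lies on chr19:44493222-44493471 (plus strand) and Wnt7a on chr6:91411354-91411603 (minus strand).
Wnt8b: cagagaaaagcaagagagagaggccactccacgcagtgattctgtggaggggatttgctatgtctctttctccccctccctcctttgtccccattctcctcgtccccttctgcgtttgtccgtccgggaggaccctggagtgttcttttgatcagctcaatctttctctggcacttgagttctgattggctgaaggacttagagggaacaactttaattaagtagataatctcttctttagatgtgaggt
Wnt7a: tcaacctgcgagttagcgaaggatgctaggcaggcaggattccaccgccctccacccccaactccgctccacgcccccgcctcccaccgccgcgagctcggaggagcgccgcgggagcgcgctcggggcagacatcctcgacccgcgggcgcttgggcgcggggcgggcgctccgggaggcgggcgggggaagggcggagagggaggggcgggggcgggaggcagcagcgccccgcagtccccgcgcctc
Neither window held CTTTGA on either strand. They differ in base composition, with 48.4% GC and 5 CpG dinucleotides for Wnt8b and 77.6% GC and 34 CpG dinucleotides for Wnt7a. The medians were 52.4% and 6 over the same 250 bases of all 32851 promoter windows.

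Receptors and the transcription factor moved in both directions. Fzd6 was at 13.7, 14.7 and 17.5 CPM in Ctrl and 9.26, 10.4 and 11.7 CPM in cKO (log2 fold change -0.55 ± 0.12, edgeR adjusted p = 0.0135), and the groups did not overlap. Lrp5, a coreceptor, was at 40.9, 53.8 and 44.6 CPM in Ctrl and 63.1, 60.4 and 54.7 CPM in cKO, separated by less than 1 CPM between the nearest libraries (log2 fold change 0.35, adjusted p = 0.0428). Its call was lost when the exon length trend was removed. Tcf7l1, known mainly as a repressor of Wnt targets, was at 50.5, 62.5 and 52.0 CPM in Ctrl and 68.6, 76.3 and 66.2 CPM in cKO (log2 fold change 0.36, adjusted p = 0.0269). Each of these genes had all cKO libraries on 1 side of all Ctrl libraries. As the test on the same libraries picked them, this separation adds no evidence, and its share over all genes was not counted. Fzd9 (log2 fold change 0.31, adjusted p = 0.0524), Fzd5 (-0.41, adjusted p = 0.0605), Dvl1 (-0.24, adjusted p = 0.065) and Notum (-0.63, adjusted p = 0.075) missed the threshold.

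**Figure D4:**
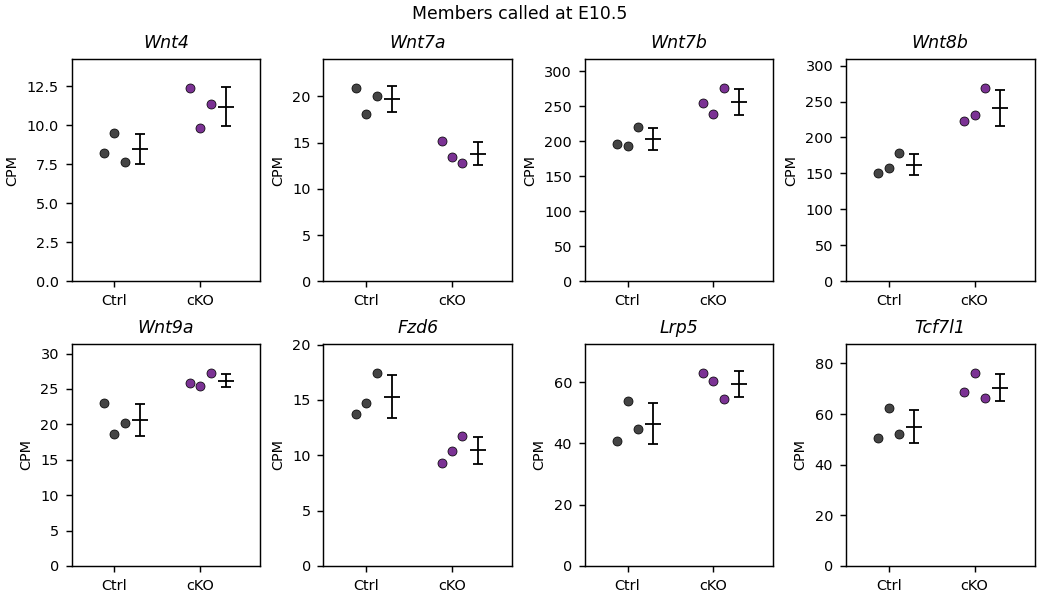
CPM of the 8 genes called between cKO and Ctrl at E10.5 (Wnt4, Wnt7a, Wnt7b, Wnt8b, Wnt9a, Fzd6, Lrp5 and Tcf7l1), with a dot for each library and a bar for the mean ± SD of 3. In each panel the 3 cKO libraries lie apart from the 3 Ctrl libraries, lower for Wnt7a and Fzd6 and higher for the other 6. The genes shown were picked by the test on these libraries.

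The feedback genes did not pass the test at E10.5. Axin2 was at 96.2, 110 and 111 CPM in Ctrl and 111, 112 and 121 CPM in cKO, with means of 106 ± 8.31 and 114 ± 5.49 CPM, and the 95% interval of its log2 fold change was -0.04 to 0.26. Sp5 overlapped between the groups, at 4.13, 3.62 and 3.20 CPM in Ctrl and 4.05, 2.47 and 4.10 CPM in cKO. Lef1 was at 41.5, 48.3 and 44.5 CPM and at 46.6, 49.8 and 49.0 CPM, which overlap as well. Of the R-spondins, which act through RNF43 and ZNRF3, none was called. Rspo3 was at 58.2, 57.4 and 67.0 CPM in Ctrl and 54.6, 58.1 and 106 CPM in cKO, and Rspo2 at 61.8, 57.1 and 73.5 CPM and at 72.2, 72.7 and 105 CPM. The high value of both came from cKO replicate 3, which was also highest for Wnt8b and Wnt7b. The secreted modulators Sfrp1, Sfrp2 and Dkk3 had log2 fold changes between -0.10 and 0.14, and none of the 3 was called at either stage. Sfrp1, the most abundant, was at 457 ± 44.8 CPM in Ctrl and, at E12.5, at 424, 422 and 438 CPM in Chd8 +/+ and 396, 414 and 348 CPM in neo/-. Wnt1, known from the midbrain and dorsal midline, was too low for a test. It had 45, 28 and 3 counts in Ctrl and 1, 2 and 7 counts in cKO.

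Of the marker lists at E10.5, those of hem and choroid plexus and of mesenchyme and meninges separated between cKO and Ctrl, and the others overlapped. The summed level of 10 hem and choroid plexus markers was 202 to 229 CPM in Ctrl and 270 to 286 CPM in cKO, and 3 of the 8 tested (Bmp4, Bmp7 and Lmx1a) were called higher. Bmp7 alone was at 51.1, 65.0 and 58.1 CPM in Ctrl and 87.0, 86.2 and 80.0 CPM in cKO. The choroid plexus genes Ttr and Kcnj13 were at no more than 0.251 CPM in any of the 6 libraries. The summed level of 13 mesenchyme and meninges genes was 884 to 988 CPM in Ctrl and 1101 to 1303 CPM in cKO, with Col1a2, Col3a1, Pdgfra and Pdgfrb called higher. The midbrain and isthmus markers overlapped, at 57.4 to 92.1 CPM in Ctrl and 60.6 to 87.4 CPM in cKO, as did the surface ectoderm markers, at 33.9 to 66.1 and 47.8 to 81.3 CPM, the endothelial markers, at 192 to 210 and 205 to 259 CPM, the neuronal markers, at 207 to 381 and 248 to 348 CPM, the progenitor markers, at 1051 to 1191 and 1039 to 1081 CPM, and the ventral markers, at 16.1 to 25.2 and 10.1 to 16.7 CPM. Of these lists Cdh5 was called higher, and Fgf8, Pax8, Gsx2 and Sox1 lower. By Xist and Y-linked genes each Ctrl pool was of a single sex (2 female and 1 male) and each of the 3 cKO pools was mixed, so that sex and genotype were not balanced here. The part of these tissues in the rise of Wnt8b, Wnt7b, Wnt9a and Wnt4 was not tested. Wnt7b and Wnt8b were still called without cKO replicate 2, the library whose removal left 2 of the 8 calls. Without cKO replicate 3 the count was 4 (Fzd6, Tcf7l1, Wnt7a and Wnt8b). Without Ctrl replicate 3 it was also 4 (Wnt7a, Wnt7b, Wnt8b and Wnt1, which then entered the test). Over all genes, 538 calls were left without cKO replicate 2, 826 without cKO replicate 3 and 951 without Ctrl replicate 3.

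The genes called at E10.5 are set beside their values in the severe hypomorph at E12.5, where none of them was called and where the stages, alleles and tissue differ. The log2 fold changes of neo/- from Chd8 +/+ were -0.27 for Wnt7a, 0.27 for Wnt8b, 0.13 for Wnt9a, 0.10 for Lrp5, 0.09 for Tcf7l1, 0.07 for Wnt7b, -0.07 for Fzd6 and -0.06 for Wnt4. Conversely, the log2 fold changes in cKO were 0.21 for Apc, 0.08 for Fzd3, 0.01 for Lrp6 and 0.14 for Wnt5a, the 4 genes lower in neo/-. Whether the effects differ between the stages was not tested, since the tables were normalised separately.

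**Figure D5:**
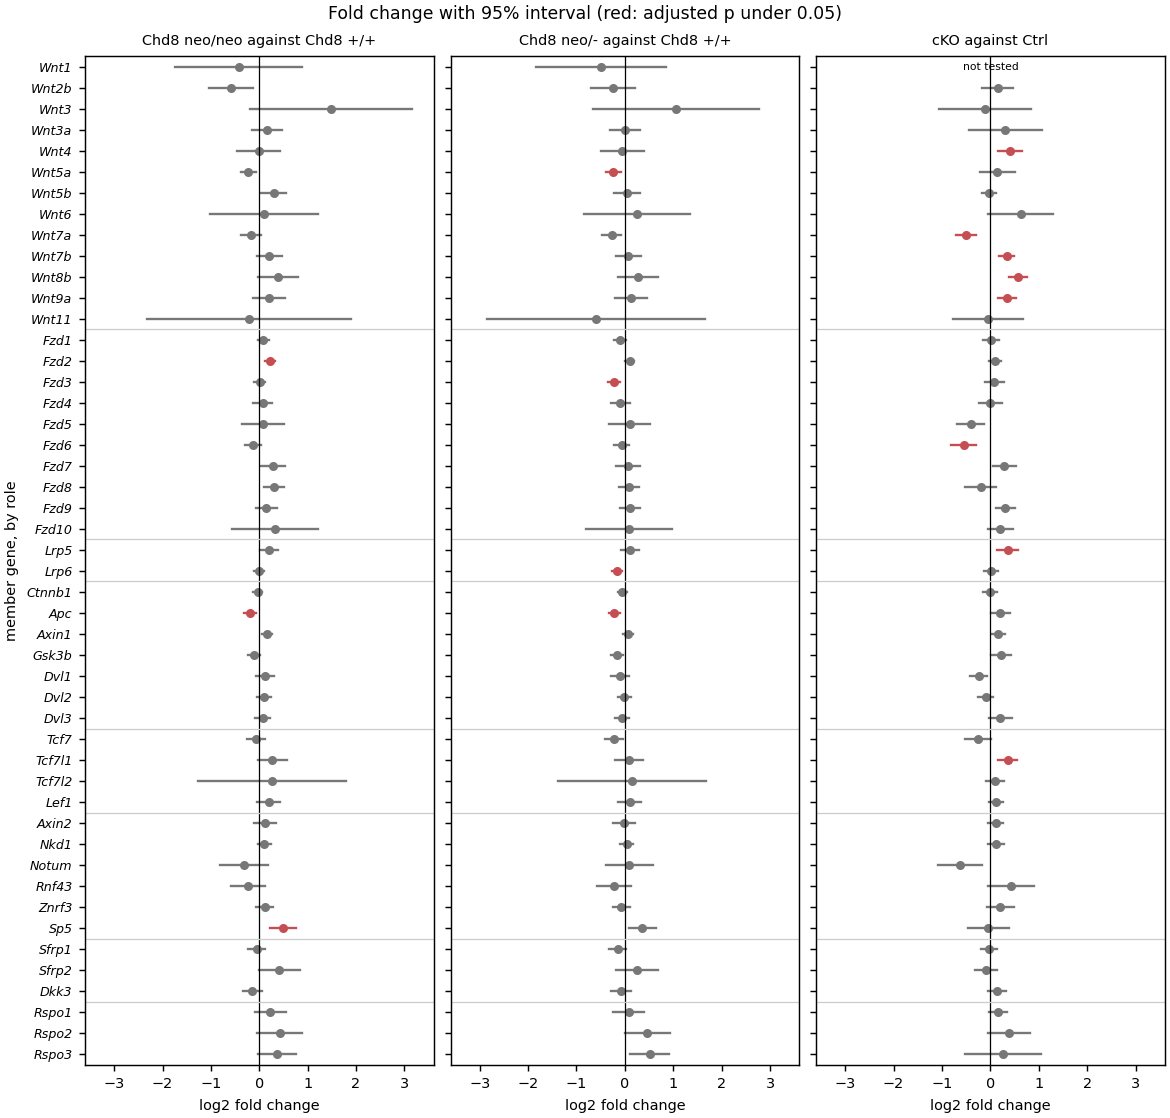
Log2 fold change with its 95% interval for the 48 genes in both E12.5 hypomorphs, each against Chd8 +/+. The 47 tested genes are shown for cKO against Ctrl, and called genes are marked. Most intervals cover 0, and the widest belong to low genes such as Wnt11 and Wnt6.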

How the data were processed

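RNA was mRNA-selected and sequenced as stranded paired-end libraries, 12 from E12.5 and 6 from E10.5. The authors trimmed reads with Trim Galore 0.4.1, aligned them with TopHat2 2.1.0 to mouse (GRCm38.p4 and mm10 are named in the submitters' processing notes) and deposited raw counts per gene from featureCounts 1.5.0, given for 2 sequencing runs of each library. No strand option is stated, so reads of a gene and of an overlapping antisense gene cannot be told apart. Of the 48 members 20 overlap a gene on the opposite strand, 5 of them among those called (Wnt5a, Wnt7b, Apc, Gsk3b and Tcf7l1), and none of the genes that overlap a called member averaged above 3.79 CPM.

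Here the runs were summed per library. All genes passing filterByExpr (18810 at E12.5 and 18435 at E10.5) were TMM-normalised and tested with edgeR 4.0.16 in R 4.3.3 (two-sided robust quasi-likelihood test), in a single fit of the 12 E12.5 libraries and a separate fit of the 6 E10.5 libraries. P-values were adjusted by Benjamini-Hochberg over all genes tested, and a gene was called at an adjusted p below 0.05. Members and gene lists were chosen with earlier results of these data known. Members called in any test were named with their values, as were Axin2, Ctnnb1 and the most abundant member of each role, and of the other pathway genes up to 5 with the smallest adjusted p per comparison. The other pathway genes called higher in a hypomorph were named as well. Marker lists covered the cell types that the tissue could hold.

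Replicate numbers recur in every group without a stated meaning. Correlations of the deviations of same-numbered libraries were 0.108, 0.195 and 0.199 between Chd8 neo/neo and Chd8 +/-. A block by replicate number was therefore also fitted for that comparison, although these weak correlations do not establish a pairing. In the other comparisons at least 1 pair was not above 0.1. Alternatives were DESeq2 1.42.0, RLE and upper quartile scaling, no filter, the compared groups alone, a replicate block, sex-linked expression as a covariate (E12.5), each run alone, each library left out and an exon length trend removed. Removal of exon length and GC trends together, and the block within the pair of groups alone, were chosen after seeing the data. The procedure was tested on simulated data. Promoter sequences were taken from RefSeq.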

Additional observations from a re-analysis of the deposited data

How the results depend on the processing

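No member call changed sign under any alternative, and of the 24 calls of single genes 1, Wnt8b in cKO, stayed past the threshold in every one. The counts of 0 members in Chd8 +/- against Chd8 +/+ and in Chd8 neo/- against neo/neo were 0 under every alternative. DESeq2 called 7 members in neo/neo against Chd8 +/+ (edgeR 3), 8 in neo/neo against Chd8 +/- (3) and 13 in cKO (8). Calls over all genes moved as well. In the same order DESeq2 called 2262 of 14366, 1788 of 14973 and 2690 of 15458 genes. The edgeR counts were 1534 and 994 of 18810, and 2110 of 18435. With exon length and GC trends removed the member counts were 1 in neo/neo against Chd8 +/+ (Fzd2) and 1 in neo/- (Fzd3, of 4). They were 0 in neo/neo against Chd8 +/- and 1 in the trend (Wnt7a, of 6). Over all 18810 genes this setting called 945, 1303, 306 and 2013 in the same order. In cKO against Ctrl it lost the calls of Lrp5, Tcf7l1, Wnt4 and Wnt9a and kept those of Fzd6, Wnt7a, Wnt7b and Wnt8b. Over all 18435 genes it called 2094 there. With the exon length trend alone removed the member counts were 1 in neo/- (Fzd3), 1 in neo/neo against Chd8 +/- (Fzd2) and 1 in the trend (Wnt7a). The counts over all genes were then 1225, 543 and 1870. With only the 2 groups compared in the fit the member count was 8 in neo/- and 0 in neo/neo against Chd8 +/-. Over all genes these fits called 2687 of 18268 and 42 of 18117. With sex-linked expression as a covariate the member count was 2 in neo/- and 1 in neo/neo against Chd8 +/-, beside 1928 and 387 of all 18810 genes. A single sequencing run, of the 2, gave 2 members in neo/-. The 2 runs alone called 1640 and 1572 of all genes there. Why these counts moved was not tested.

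With the replicate number as a block the member count was 1 in neo/neo against Chd8 +/+ (Fzd2) and 3 in neo/- (Apc, Fzd3 and Rspo3). It was 3 in neo/neo against Chd8 +/- (Fzd2, Rspo1 and Wnt5a), 6 in the trend and 11 in cKO. Over all genes this block gave 1161, 1721, 572, 2460 and 2598 calls in the same order. The block within the 6 libraries of neo/neo and Chd8 +/- called 1 member (Rspo1) and 77 of all 18117 genes. In every comparison the samples are known to share a number alone.

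Leaving out 1 library at a time gave 0 to 5 members in neo/neo against Chd8 +/+, 0 to 5 in neo/- and 0 to 7 in neo/neo against Chd8 +/-. It gave 1 to 8 in the trend and 2 to 10 in cKO. Calls over all genes ran from 435 to 2605, 1015 to 2574, 23 to 2100, 1750 to 2910 and 538 to 2483 in the same order. For the other 78 pathway genes, leaving out 1 library gave 1 to 11 in neo/neo (6 with all libraries), 5 to 10 in neo/- (7), 0 to 11 in neo/neo against Chd8 +/- (6), 5 to 11 in the trend (8) and 5 to 14 in cKO (10). Over the remaining alternatives these counts were 3 to 11, 3 to 11, 0 to 11, 5 to 15 and 8 to 13.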

Other observations

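A wider list of 78 Wnt pathway genes outside the 48, among them other receptors, glypicans, tankyrases, nuclear cofactors, planar polarity genes and reported targets, was counted in the same tests. Of the 70 tested at E12.5, edgeR called 0 in Chd8 +/- (5 at an unadjusted p below 0.05), 6 in Chd8 neo/neo (1 higher and 5 lower) and 7 in Chd8 neo/- (2 higher and 5 lower), each against Chd8 +/+, beside 8.16% and 11.5% of all genes. These counts lie near the shares of all genes. The count was also 0 between the hypomorphs, with 5 at an unadjusted p below 0.05, and DESeq2 gave 0 in both of these comparisons. Celsr3, a cadherin of the planar polarity pathway expressed in neurons, was lower in both hypomorphs (mean 170 CPM in Chd8 +/+, 133 in neo/neo and 124 in neo/-; log2 fold changes -0.35 and -0.45, edgeR adjusted p = 0.00494 and 3.6e-04). The tankyrase genes, whose products mark AXIN for degradation, were lower in neo/-, with log2 fold changes of -0.26 for Tnks (adjusted p = 0.00114) and -0.21 for Tnks2 (adjusted p = 0.00758). Apc2, the neuronal relative of Apc, was lower in neo/- as well (mean 419 CPM in Chd8 +/+ and 332 CPM in neo/-, log2 fold change -0.34, adjusted p = 0.00415), as was Pygo1, a nuclear cofactor of β-catenin (-0.19, adjusted p = 0.00254). In neo/neo Dact1, which binds Dishevelled, was lower (-0.40, adjusted p = 0.0139), as were Tnks2 (-0.19, adjusted p = 0.020), Pygo1 (-0.14, adjusted p = 0.0236) and Daam1 (-0.16, adjusted p = 0.0284). The genes called higher were Mycn in neo/neo (edgeR adjusted p = 0.0372), and Id2 and Sostdc1 in neo/- (adjusted p = 0.036 and 0.0308). Against Chd8 +/- the neo/neo libraries had 2 genes higher (Fuz and Tle1) and 4 lower (Daam1, Dact1, Pygo1 and Tnks2), beside 5.28% of all genes. All 8 genes called in the trend over the genotypes (15.7% of all genes) were lower, with Celsr3 at -0.15 per step, Tnks at -0.093, Apc2 at -0.11, Pygo1 at -0.073 and Tnks2 at -0.078. The neuronal markers Dcx and Map2 were lower in the same hypomorphic libraries, and their part in the values of Celsr3 and Apc2 was not tested.

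At E10.5, 10 of the 74 tested were called in cKO, 8 higher and 2 lower (13.5%, beside 11.4% of all genes). The glypican gene Gpc3, which encodes a cell-surface proteoglycan, went from a mean of 124 CPM in Ctrl to 188 CPM in cKO (log2 fold change 0.60, edgeR adjusted p = 0.00436) and Gpc4 from 106 to 137 CPM (0.37, adjusted p = 0.00663). Bcl9l, a cofactor of β-catenin, was higher (0.56, adjusted p = 0.00359), and so was Ptk7, a receptor of the planar polarity pathway (0.38, adjusted p = 0.0057). Celsr3 was lower at this stage too (17.2 CPM in Ctrl and 11.04 CPM in cKO, log2 fold change -0.64, adjusted p = 0.00455).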
